A study of Homo sapiens with 12 samples.

Results

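The axon guidance ligands and receptors of MDA-MB-231 cells were followed after knockdown of NONO and after knockdown of PKM2. Members were taken by gene name, as the semaphorins SEMA3 to SEMA7, plexins, neuropilins, ephrins, Eph receptors, Slits, Robos, netrins, UNC5 receptors, DCC and neogenin (NEO1) that are present in both deposited tables. The rule uses names and no measured value, although it was chosen with earlier results of these data known. The names gave 77 of the 60558 genes that the 2 tables share. Of these, 72 are ligand and receptor genes, and the other 5 are antisense RNA genes that carry a semaphorin name (SEMA3B-AS1, SEMA3F-AS1, SEMA5A-AS1, SEMA6A-AS1 and SEMA6A-AS2).

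MDA-MB-231 is an established human cell line of triple-negative breast cancer (TNBC), and it was the only line sequenced in these libraries. NONO, a nuclear protein that binds RNA and DNA, or PKM2, the pyruvate kinase isoform made from the PKM gene, was knocked down with siRNA, and the cells carried no other labelled alteration. Each knockdown was compared with its own negative control (NC) group, labelled wild type, so the 2 experiments shared no library. Poly(A)-selected RNA of 3 libraries in each of the 4 groups was sequenced. The labels call the libraries of a group repeats and do not say that they came from separate cultures, so P values measure the spread between these libraries, which may be technical.

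Semaphorins are secreted or membrane-bound cues read by plexin receptors, and most secreted semaphorins need a neuropilin as co-receptor. Ephrins are membrane-anchored ligands of Eph receptor tyrosine kinases, and Slits are secreted ligands of Robo receptors. Netrins are laminin-related cues, some of which are read by DCC, neogenin and UNC5 receptors. These families are known for steering growing axons, and in breast tissue and breast tumours they also act in cell adhesion, cell migration and the growth of blood vessels.

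Estimated counts per library summed to 19861762 to 20981712 (NONO) and 24097948 to 28455268 (PKM2). Levels are given as counts per 1000000 (CPM) after TMM normalization, and changes as the log2 fold change of knockdown over NC ± its standard error (SE, 3 libraries a group) from the quasi-likelihood test of edgeR, and P values are adjusted by Benjamini-Hochberg over all genes tested. NONO was measured at 391, 358 and 369 CPM in the NC libraries and 61.8, 64.3 and 61.9 CPM in the knockdown libraries of its experiment. All 3 knockdown libraries lay far below the NC libraries (log2 fold change -2.57 ± 0.05, adjusted P = 1.17e-10). PKM was measured at 2276, 2211 and 2324 CPM in the NC libraries and 218, 228 and 234 CPM in the knockdown libraries of the PKM2 experiment (log2 fold change -3.32 ± 0.05, adjusted P = 7.03e-12), and the tables do not separate its isoforms. Library 1 of the NONO experiment's NC group and library 3 of the PKM2 knockdown group stood apart from their replicates, with chi-square values over genes, per degree of freedom, of up to 11.1 and 13.4, against 2.54 and 3.47 between the other 2 libraries of their groups. VIM, CD44, AXL and the other 5 markers of a mesenchymal breast cancer line passed the filter on low counts in both experiments. ESR1, PGR, ERBB2, GATA3 and FOXA1 were examined as genes low or absent in triple-negative cells. Of these 5, only ESR1 and PGR stayed below 0.5 TPM in NC cells, and 3 passed the filter. Their sum was 32.8 to 40.9 TPM in the NONO experiment's NC libraries and 30.4 to 32.4 TPM in those of the PKM2 experiment. After PKM2 knockdown 3 of them fell, against 34.7% of all genes, and after NONO knockdown 1 fell, against 17.2%. Of 5 epithelial markers, CDH1 alone was below 0.5 TPM in NC cells, listed at 0.

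The NC cells expressed part of each family except UNC5. On the per-length scale of transcripts per 1000000 (TPM), 22 of the 77 members had a mean of at least 10 TPM in both NC groups, and 30 were below 0.5 TPM in both. EPHA2, an Eph receptor of basal-type breast cancer cells, had the highest level, at 167 ± 1.75 TPM (SD, n = 3) in the NC libraries of the NONO experiment and 139.9 ± 2.23 TPM in those of the PKM2 experiment. The neuropilin NRP1 followed at 112 ± 11.5 and 113 ± 1.45 TPM, then the plexin PLXND1 at 93.4 ± 10.1 and 77.4 ± 3.80 TPM and the plexin PLXNB2 at 74.0 ± 3.65 and 70.6 ± 1.17 TPM. EPHA2 and NRP1 did not overlap within 1 SD in either experiment, whereas PLXND1 and PLXNB2 lay within 2 SD of each other. The best expressed ligands were the membrane-bound semaphorins SEMA4B, at 49.2 ± 11.04 and 47.5 ± 0.715 TPM, and SEMA7A, at 34.9 ± 5.64 and 37.7 ± 0.838 TPM. Among the DCC, UNC5 and neogenin receptors, NEO1 alone passed the filter on low counts, at 13.0 ± 2.14 and 12.4 ± 1.40 TPM, while DCC and UNC5A were listed at 0 in all 12 libraries.

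**Figure D1:**
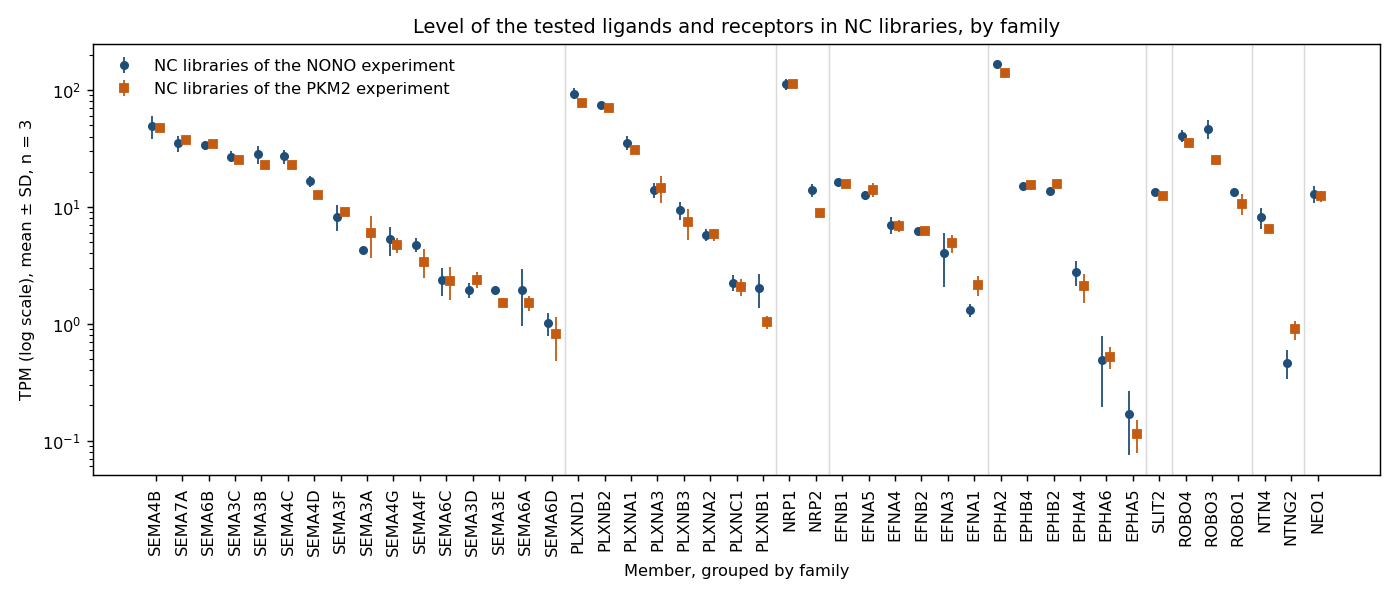
Mean TPM (log scale) of each protein-coding member tested in at least 1 experiment, in the 3 NC libraries of each experiment, grouped by family; bars show the SD. EPHA2 is highest, at 167 and 139.9 TPM, and EPHA5 lowest, at 0.17 and 0.113 TPM.

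The filter on low counts left 45 members to be tested for NONO knockdown and 46 for PKM2 knockdown, with EPHA5 tested in the PKM2 experiment only. The other 31 had at most 16 estimated counts in any library. They were the receptors DCC, UNC5A, UNC5B, UNC5C, UNC5D, ROBO2, PLXNA4, EPHA1, EPHA3, EPHA7, EPHA8, EPHA10, EPHB1, EPHB3 and EPHB6, the ligands SLIT1, SLIT3, NTN1, NTN3, NTN5, NTNG1, EFNA2, EFNB3, SEMA3G, SEMA4A, SEMA5A and SEMA5B, and 4 of the antisense RNAs. The fifth antisense RNA, SEMA3F-AS1, was tested and not called in either experiment. These 31 genes have no value in the separate fits, and 27 of them were called under none of the other settings. EPHA7 was at 0.546, 0.278 and 0.494 CPM in the NC libraries and 0.124, 0.0430 and 0.0793 CPM in the knockdown libraries of the PKM2 experiment, on 7 to 16 and 1 to 3 estimated counts per library. It was called as lowered after PKM2 knockdown in 7 other settings, among them without the filter on low counts (log2 fold change -2.35, adjusted P = 0.00575) and with DESeq2 (log2 fold change -2.40, adjusted P = 0.0326). PLXNA4, ROBO2 and EPHA1 were each called in 1 other setting.

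After NONO knockdown, 22 of the 45 tested members had an adjusted P below 0.05, against 33.4% of all genes tested. Of these, 8 rose, against 16.2% of all genes, and 14 fell, against 17.2%. The changes were small, with a median of -0.14 on the log2 scale over the 45 members and -0.01 over all genes, and with 19 members above 0 and 26 below. A change above 2-fold with an unadjusted P below 0.05, the cutoff for a differentially expressed gene (DEG) in the study's methods, was met by 1 member, EFNA1, which fell, against 2.95% of all genes (0.789% raised and 2.16% lowered). In 26 of the 45 members the NC and knockdown libraries did not overlap, against 46.1% of all genes. With limma on log2(TPM + 1), 4 members rose and 5 fell. That fit called 2244 of 13786 genes, 30.8% of them raised, against 4954 of 14832 genes in the main fit, 48.4% of them raised. The calls of EPHA4, EPHB2, NRP2, PLXNA1, PLXNA2, PLXNA3, SEMA3C, SEMA3E, SEMA4D, SEMA4G, SEMA6A and SEMA7A after NONO knockdown were lost in all 3 limma fits on TPM values.

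After PKM2 knockdown, 39 of the 46 tested members had an adjusted P below 0.05, against 68.4% of all genes tested. Of these, 10 rose, against 33.6% of all genes, and 29 fell, against 34.7%. The median was -0.45 over the 46 members and -0.01 over all genes, with 14 members above 0 and 32 below. There were 17 DEGs, or 37.0% of the members against 20.8% of all genes. The 3 that rose (NTN4, SEMA7A and EPHA4) stood against 7.05% of all genes, and the 14 that fell against 13.8%. The libraries of 40 members did not overlap between the groups, against 71.9% of all genes. In bulk RNA, fewer cells of a type and less RNA per cell cannot be told apart. With a trend on transcript length and GC content taken out, 23 rather than 29 members fell and 15 were DEGs. That fit called 10482 of 15524 genes, 49.4% of them raised. On TPM values, the calls of PLXNA1, SEMA3A, SEMA3C and SEMA6A were lost in all 3 limma fits.

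In both experiments, 15 of the 45 members tested in both separate fits were called in the same direction, against 19.3% of the genes tested in both. Both knockdowns raised NTN4, SEMA7A, SLIT2 and NRP1, a share of 8.89% against 9.34% of all genes. Both lowered 11 members, a share of 24.4% against 9.93% of all genes, namely SEMA3B, SEMA4F, SEMA4G, SEMA6A, PLXNA2, PLXNA3, PLXND1, EFNA1, EFNB1, EPHB2 and ROBO1. A further 5 (EPHA4, EPHB4, NRP2, PLXNA1 and SEMA3C) were called in opposite directions, or 11.1% against 7.97% of all genes. Only EFNA1 was a DEG in the same direction in both, against 1.47% of all genes (0.33% both raised and 1.14% both lowered), and no member was a DEG in opposite directions, against 0.145%.

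**Figure D2:**
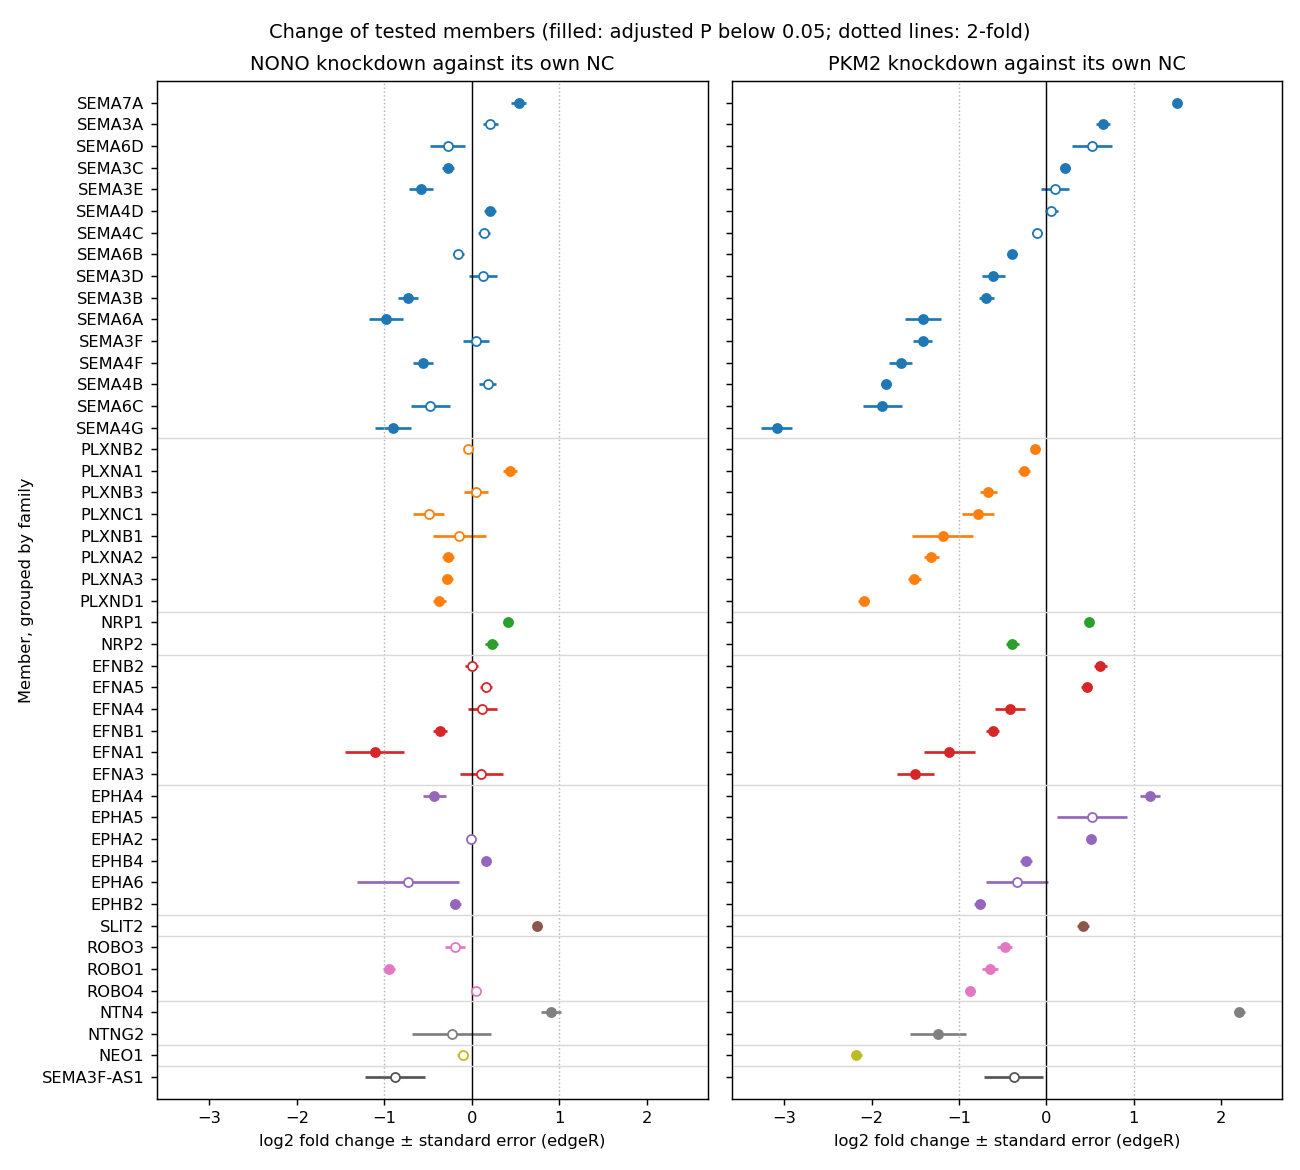
Log2 fold change (x axis) of every tested member after NONO knockdown (left) and PKM2 knockdown (right), each against its own NC group of 3 libraries; bars show the SE, filled points have an adjusted P below 0.05 and dotted lines mark a 2-fold change. All 8 plexins lie below 0 after PKM2 knockdown, and the changes after NONO knockdown lie within 2-fold except that of EFNA1.

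To show the start regions of genes that moved together, promoters of the 2 members raised and the 2 lowered in both experiments with the largest change after PKM2 knockdown are printed below from RefSeq (GRCh38.p14), from 250 bases before to 50 bases after the start site, on the strand of the gene. They lie at chr12:95791106-95791405, minus strand, for NTN4, at chr15:74433909-74434208, minus strand, for SEMA7A, at chr10:100969254-100969553, plus strand, for SEMA4G, and at chr3:129606627-129606926, minus strand, for PLXND1. Capitals mark matches to the motifs searched on both strands, here GGGCGG (GC box, or CCGCCC on the other strand) and GGAATG (the core motif of TEAD factors).

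NTN4: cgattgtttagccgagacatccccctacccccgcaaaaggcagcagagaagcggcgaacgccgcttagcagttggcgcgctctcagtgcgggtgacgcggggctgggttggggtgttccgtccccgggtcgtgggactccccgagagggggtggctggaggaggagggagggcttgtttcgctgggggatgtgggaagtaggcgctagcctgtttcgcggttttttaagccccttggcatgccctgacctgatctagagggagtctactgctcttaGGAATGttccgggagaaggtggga

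SEMA7A: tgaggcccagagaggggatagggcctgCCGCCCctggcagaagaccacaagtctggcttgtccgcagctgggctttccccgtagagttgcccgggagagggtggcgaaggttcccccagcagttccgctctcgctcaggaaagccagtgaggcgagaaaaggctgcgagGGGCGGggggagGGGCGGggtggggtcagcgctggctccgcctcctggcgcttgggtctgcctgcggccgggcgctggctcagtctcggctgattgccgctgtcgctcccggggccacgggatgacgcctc

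SEMA4G: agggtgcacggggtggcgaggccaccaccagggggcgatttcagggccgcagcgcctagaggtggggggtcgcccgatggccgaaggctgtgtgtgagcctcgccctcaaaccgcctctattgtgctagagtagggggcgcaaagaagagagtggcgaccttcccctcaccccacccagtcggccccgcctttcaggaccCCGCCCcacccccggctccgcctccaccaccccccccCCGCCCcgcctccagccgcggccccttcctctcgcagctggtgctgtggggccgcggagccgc

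PLXND1: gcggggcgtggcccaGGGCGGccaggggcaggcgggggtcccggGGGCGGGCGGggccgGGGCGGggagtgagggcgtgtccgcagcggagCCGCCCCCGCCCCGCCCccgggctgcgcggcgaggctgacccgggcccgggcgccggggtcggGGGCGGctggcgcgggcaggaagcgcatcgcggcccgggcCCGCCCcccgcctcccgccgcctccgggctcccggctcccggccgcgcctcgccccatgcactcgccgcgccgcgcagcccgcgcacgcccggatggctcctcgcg

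The GC box was found 3 times in the SEMA7A window, 2 times in that of SEMA4G and 9 times in that of PLXND1, overlapping matches included, and the NTN4 window held only the TEAD motif, after the start site. The windows were 62.3%, 70.0%, 72.7% and 87.3% G or C for NTN4, SEMA7A, SEMA4G and PLXND1. A promoter was matched for 64 of the 77 members and for 41 of the tested ones. The GC box was present in 33 of these 41 (80.5%) against 45.0% of all 35116 promoters, and the median GC content was 67.0% against 58.7%. GGAATG was present in 5 of the 41 (12.2%) against 14.0% of all promoters, CCAAT in 11 (26.8%) against 34.6%, CACGTG in 3 (7.32%) against 7.26%, TATAAA in 1 (2.44%) against 11.5%, TGANTCA in 1 (2.44%) against 7.71% and TGACGTCA in 2 (4.88%) against 1.85%. All promoters include those of genes that were not tested here, and a match is a description of letters only.

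Among the semaphorin ligands, 16 of the 20 protein-coding genes were tested. After NONO knockdown 2 rose, 6 fell and 8 were not called, and after PKM2 knockdown 3 rose, 9 fell and 4 were not called. Beside this and the family counts below, 16.2% of all genes rose and 17.2% fell after NONO knockdown. After PKM2 knockdown the shares of all genes were 33.6% and 34.7%. The largest falls after PKM2 knockdown were those of SEMA4G, SEMA6C, SEMA4B and SEMA4F, transmembrane semaphorins of classes 4 and 6. SEMA4G (chromosome 10, 100969518 to 100985871, plus strand, GENCODE 29 on GRCh38), whose promoter is printed above, was measured at 8.02, 6.95 and 8.61 CPM in the NC libraries and 0.953, 0.903 and 0.912 CPM in the knockdown libraries of the PKM2 experiment. All 3 knockdown libraries lay below 1 CPM, 8.49-fold under the NC libraries (log2 fold change -3.09 ± 0.18, adjusted P = 2.56e-08). It was at 6.27, 11.1 and 8.37 CPM in the NC libraries and 4.59, 5.29 and 3.92 CPM in the knockdown libraries of the NONO experiment. The groups did not overlap, although the NC libraries were spread widely (log2 fold change -0.90 ± 0.20, adjusted P = 0.00562). SEMA4G shares 1170 exon bases with MRPL43 on the opposite strand, and how the counting used strand is not given in the sources used here. MRPL43, a mitochondrial ribosome protein gene, rose by 0.23 ± 0.07 (adjusted P = 0.0107) on the log2 scale after PKM2 knockdown, in the other direction. The same limit holds for other members that share exon bases with genes on the opposite strand. Among them are EFNB2 (1313 bases), ROBO4 (744 and 448 with separate genes), NRP1 (561), EPHA4 (353) and SEMA6A (268).

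SEMA4B (chromosome 15, 90160604 to 90229679, plus strand), the best expressed semaphorin, was at 94.8, 101 and 99.98 CPM in the NC libraries and 28.7, 26.5 and 28.0 CPM in the knockdown libraries of the PKM2 experiment. It fell 3.56-fold with no overlap (log2 fold change -1.83 ± 0.06, adjusted P = 3.71e-10). After NONO knockdown, SEMA4B had values of 91.7, 129 and 119 CPM in the NC libraries and 129.7, 131 and 125 CPM in the knockdown libraries. The knockdown values lay within or just above the NC range, and the gene was not called (log2 fold change 0.18 ± 0.10, adjusted P = 0.171), but it was called as raised without the second NC library (log2 fold change 0.30, adjusted P = 0.0251). SEMA4F was at 8.63, 8.62 and 9.28 CPM in the NC libraries and 2.53, 2.75 and 3.05 CPM in the knockdown libraries of the PKM2 experiment. All knockdown libraries were lower, by 3.18-fold (log2 fold change -1.67 ± 0.13, adjusted P = 4.37e-07). Its values in the NONO experiment were 8.68, 9.25 and 8.83 CPM in the NC libraries and 6.08, 5.75 and 6.36 CPM in the knockdown libraries. Here too the groups were apart, by a smaller step (log2 fold change -0.56 ± 0.11, adjusted P = 0.00328). SEMA4C and SEMA4D, the ligands of PLXNB2 and PLXNB1, were not called after PKM2 knockdown (log2 fold changes -0.10 and 0.06), and SEMA4D rose by 0.21 ± 0.07 after NONO knockdown (adjusted P = 0.0369), a call lost without any 1 of the 3 knockdown libraries (adjusted P = 0.0703 to 0.1475).

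The secreted class 3 semaphorins moved in both directions. SEMA3B was at 36.1, 49.6 and 46.0 CPM in the NC libraries and 27.6, 28.8 and 23.4 CPM in the knockdown libraries of the NONO experiment. All 3 knockdown libraries were lower (log2 fold change -0.72 ± 0.11, adjusted P = 0.000601). It was at 35.5, 35.3 and 39.4 CPM in the NC libraries and 20.4, 22.5 and 25.4 CPM in the knockdown libraries of the PKM2 experiment. The fall there was of nearly the same size (log2 fold change -0.69 ± 0.09, adjusted P = 1.82e-05). SEMA3F, a ligand of NRP2, was at 19.5, 18.5 and 20.7 CPM in the NC libraries and 6.67, 6.62 and 8.64 CPM in the knockdown libraries of the PKM2 experiment. It fell 2.67-fold, with the groups well apart (log2 fold change -1.42 ± 0.11, adjusted P = 4.04e-07). SEMA3F was at 13.2, 22.0 and 17.3 CPM in the NC libraries and 18.6, 17.9 and 17.9 CPM in the knockdown libraries of the NONO experiment. The tight knockdown values sat inside the wide NC range, and no call was made (log2 fold change 0.05 ± 0.15, adjusted P = 0.835). Its exons share 110 bases with SEMA3F-AS1 on the opposite strand.

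SEMA3C, which signals through neuropilins and PLXND1, was at 83.0, 71.4 and 74.6 CPM in the NC libraries and 68.6, 59.8 and 61.9 CPM in the knockdown libraries of the NONO experiment. The knockdown libraries lay lower by a small step (log2 fold change -0.27 ± 0.07, adjusted P = 0.0114), and the call was lost without the second or the third knockdown library (adjusted P = 0.0671 and 0.0554). It was at 68.8, 71.2 and 67.5 CPM in the NC libraries and 82.3, 81.2 and 77.1 CPM in the knockdown libraries of the PKM2 experiment. Counts were higher in all 3 knockdown libraries (log2 fold change 0.21 ± 0.05, adjusted P = 0.00331), but on TPM values the change was -0.09 with limma on log2(TPM + 1) (adjusted P = 0.528). The transcript length implied by counts and TPM was longer after PKM2 knockdown, 5513 ± 418 bases against 4845 ± 51.5 (SD, n = 3). SEMA3A, the classical repellent read by NRP1, rose by 0.65 ± 0.08 after PKM2 knockdown (adjusted P = 2.51e-05), whereas on TPM values it was at 0.29 to 0.33 with limma (adjusted P = 0.493 to 0.623). SEMA3D fell by 0.61 (SE 0.13, adjusted P = 0.00123) after PKM2 knockdown. SEMA3E, a direct ligand of PLXND1, fell after NONO knockdown (log2 fold change -0.58 ± 0.14, adjusted P = 0.00859), with limma values of -0.23 to -0.14 on TPM (adjusted P = 0.532 to 0.667). It was not called after PKM2 knockdown (log2 fold change 0.09), and the difference between the knockdowns was 0.66 ± 0.21 (adjusted P = 0.012).

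In the remaining classes, SEMA7A rose and SEMA6D was not called after PKM2 knockdown (log2 fold change 0.52 ± 0.23, adjusted P = 0.0585). SEMA7A (chromosome 15, 74409289 to 74433958, minus strand) encodes a membrane-anchored semaphorin read by PLXNC1 and integrins, and its promoter is printed above. It was at 77.6, 76.4 and 75.3 CPM in the NC libraries and 211, 219 and 216 CPM in the knockdown libraries of the PKM2 experiment. Every knockdown library was higher, by 2.82-fold (log2 fold change 1.49 ± 0.05, adjusted P = 3.07e-10). It was at 87.1, 67.3 and 68.0 CPM in the NC libraries and 107, 108 and 108 CPM in the knockdown libraries of the NONO experiment. The knockdown libraries were nearly equal and above all NC libraries, of which the first was highest (log2 fold change 0.54 ± 0.08, adjusted P = 0.000566). The transmembrane class 6 semaphorin SEMA6A, a ligand of PLXNA2, was at 5.07, 3.72 and 4.58 CPM in the NC libraries and 2.29, 2.54 and 1.93 CPM in the knockdown libraries of the NONO experiment. The groups did not overlap (log2 fold change -0.98 ± 0.20, adjusted P = 0.00276). It was at 3.69, 4.37 and 4.23 CPM in the NC libraries and 1.57, 1.85 and 1.19 CPM in the knockdown libraries of the PKM2 experiment. This was a fall of 2.66-fold (log2 fold change -1.41 ± 0.21, adjusted P = 7.75e-05). On TPM values it was -0.54 to -0.32 with limma (adjusted P = 0.0659 to 0.121), and its value after NONO knockdown was -0.98 to -0.58 (adjusted P = 0.227 to 0.377). SEMA6C was at 4.03, 4.01 and 4.27 CPM in the NC libraries and 1.202, 0.774 and 1.35 CPM in the knockdown libraries of the PKM2 experiment. All knockdown libraries were below the NC libraries (log2 fold change -1.88 ± 0.22, adjusted P = 1.36e-05). SEMA6C was at 3.16, 5.86 and 4.91 CPM in the NC libraries and 3.04, 3.51 and 3.51 CPM in the knockdown libraries of the NONO experiment. The first NC library lay inside the knockdown range and the gene was not called (log2 fold change -0.47 ± 0.22, adjusted P = 0.125), but it was called without that library (log2 fold change -0.67, adjusted P = 0.00528). SEMA6B fell by 0.39 (SE 0.06) after PKM2 knockdown (adjusted P = 6.99e-05), and this call was lost with the trend on length and GC content taken out, at -0.02 (adjusted P = 0.756).

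All 8 tested plexins, the semaphorin receptors, were called as lowered after PKM2 knockdown, against 34.7% of all genes. Their median was -0.99, and 4 of them were DEGs, against 13.8% of all genes that were lowered as DEGs. With the trend on length and GC content taken out, PLXNA1 and PLXNB2 were no longer lowered, at 0.07 and 0.19. After NONO knockdown 1 plexin rose, 3 fell and 4 were not called. PLXND1 (chromosome 3, 129555175 to 129606818, minus strand), the third best expressed member, was at 137, 139 and 150.0 CPM in the NC libraries and 34.9, 32.1 and 32.8 CPM in the knockdown libraries of the PKM2 experiment. The knockdown libraries were close together and 4.26-fold lower (log2 fold change -2.09 ± 0.06, adjusted P = 2.01e-10). It was at 150.2, 185 and 180.3 CPM in the NC libraries and 136, 138 and 125 CPM in the knockdown libraries of the NONO experiment. The fall there was smaller, again with no overlap (log2 fold change -0.37 ± 0.07, adjusted P = 0.00251). PLXNA3 was at 35.0, 34.6 and 37.4 CPM in the NC libraries and 12.5, 12.1 and 12.9 CPM in the knockdown libraries of the PKM2 experiment. It fell 2.85-fold (log2 fold change -1.51 ± 0.07, adjusted P = 5.43e-09). Its values were 37.1, 38.7 and 39.7 CPM in the NC libraries and 32.5, 31.3 and 31.4 CPM in the knockdown libraries of the NONO experiment. They were slightly lower in each knockdown library (log2 fold change -0.28 ± 0.06, adjusted P = 0.00429).

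PLXNA2, a receptor of SEMA6A, was at 41.4, 39.4 and 40.7 CPM in the NC libraries and 17.4, 17.6 and 13.9 CPM in the knockdown libraries of the PKM2 experiment. All knockdown libraries were lower, the third most so (log2 fold change -1.32 ± 0.09, adjusted P = 8.71e-08). After NONO knockdown PLXNA2 was at 43.4, 39.5 and 44.8 CPM in the NC libraries and 34.5, 37.1 and 34.5 CPM in the knockdown libraries. The step was small (log2 fold change -0.27 ± 0.07, adjusted P = 0.01), and the call was lost without the third NC library (adjusted P = 0.055). PLXNA1, a co-receptor partner of NRP1, was at 192, 252 and 236 CPM in the NC libraries and 312, 313 and 293 CPM in the knockdown libraries of the NONO experiment. It rose in all 3 knockdown libraries (log2 fold change 0.43 ± 0.08, adjusted P = 0.00178). It was at 185, 184 and 197 CPM in the NC libraries and 162, 171 and 140.0 CPM in the knockdown libraries of the PKM2 experiment. All 3 were lower there (log2 fold change -0.26 ± 0.07, adjusted P = 0.00551), but with the trend on length and GC content taken out the value was 0.07 (adjusted P = 0.387).

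PLXNB1, the receptor of SEMA4D, was at 1.02, 2.07 and 1.94 CPM in the NC libraries and 0.912, 0.688 and 0.595 CPM in the knockdown libraries of the PKM2 experiment, from 15 to 22 estimated counts per knockdown library. The groups did not overlap (log2 fold change -1.19 ± 0.34, adjusted P = 0.00915). The call was lost with limma on log2(TPM + 1) without the filter on TPM, at -0.25 (SE 0.18, adjusted P = 0.427). PLXNB1 was at 1.41, 3.24 and 2.24 CPM in the NC libraries and 2.14, 2.44 and 1.68 CPM in the knockdown libraries of the NONO experiment. The ranges overlapped and no call was made (log2 fold change -0.14 ± 0.30, adjusted P = 0.76). PLXNB2 was lowered least, by 0.13 (SE 0.05, adjusted P = 0.0377) after PKM2 knockdown. The call was lost without any 1 of 5 libraries (adjusted P = 0.0565 to 0.1463) and the value turned to 0.19 (adjusted P = 0.00444) with the trend on length and GC content taken out. PLXNB3 and PLXNC1, a receptor of SEMA7A, fell by 0.66 (SE 0.10, adjusted P = 8.3e-05) and 0.78 (SE 0.18, adjusted P = 0.00231). PLXNB3 shares 1432 exon bases with SRPK3 on the same strand.

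Of the neuropilins, the co-receptors of secreted semaphorins and of VEGF proteins, NRP1 rose in both experiments. NRP1 was at 390.1, 449 and 456 CPM in the NC libraries and 585, 584 and 553 CPM in the knockdown libraries of the NONO experiment. Each knockdown library was above all NC libraries (log2 fold change 0.41 ± 0.06, adjusted P = 0.000276). NRP1 was at 363, 371 and 361 CPM in the NC libraries and 522, 529 and 487 CPM in the knockdown libraries of the PKM2 experiment. The step was alike in size (log2 fold change 0.49 ± 0.05, adjusted P = 2.07e-06). NRP2 was at 34.7, 41.7 and 41.0 CPM in the NC libraries and 44.4, 45.1 and 48.1 CPM in the knockdown libraries of the NONO experiment. The knockdown libraries were slightly higher (log2 fold change 0.23 ± 0.08, adjusted P = 0.0374), and the call was lost without any 1 of the knockdown libraries (adjusted P = 0.0661 to 0.1477). NRP2 was at 31.2, 34.1 and 30.6 CPM in the NC libraries and 26.1, 24.8 and 22.3 CPM in the knockdown libraries of the PKM2 experiment. There it fell, with no overlap (log2 fold change -0.39 ± 0.08, adjusted P = 0.000736).

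Of the 8 ephrins, the ligands of Eph receptors, 6 were tested. After NONO knockdown 2 fell and 4 were not called, and after PKM2 knockdown 2 rose and 4 fell. EFNA1, the main ligand of EPHA2, was at 1.41, 1.24 and 0.982 CPM in the NC libraries and 0.698, 0.509 and 0.458 CPM in the knockdown libraries of the NONO experiment, from 21 to 28 estimated counts per NC library and 9 to 14 per knockdown library. All 3 knockdown libraries were lower (log2 fold change -1.11 ± 0.34, adjusted P = 0.0254), but the call was lost without the first or second NC library or the second or the third knockdown library (log2 fold change -1.09 to -0.98, adjusted P = 0.0686 to 0.0985). It was also lost with DESeq2 (log2 fold change -1.11, adjusted P = 0.104). EFNA1 was at 2.22, 2.22 and 1.55 CPM in the NC libraries and 1.202, 0.731 and 0.832 CPM in the knockdown libraries of the PKM2 experiment. The groups were again apart, on 17 to 29 estimated counts per knockdown library (log2 fold change -1.11 ± 0.29, adjusted P = 0.00472).

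EFNA3 was at 4.68, 4.37 and 3.56 CPM in the NC libraries and 1.33, 1.33 and 1.78 CPM in the knockdown libraries of the PKM2 experiment. It fell 2.83-fold (log2 fold change -1.50 ± 0.21, adjusted P = 4.73e-05), and it shares 853 exon bases with AL691442.1, a neighbour on the same strand. EFNA3 was at 2.11, 4.24 and 2.76 CPM in the NC libraries and 3.49, 3.31 and 3.05 CPM in the knockdown libraries of the NONO experiment. The ranges overlapped (log2 fold change 0.11 ± 0.24, adjusted P = 0.771). EFNB1, a transmembrane ephrin, was at 36.6, 37.8 and 38.1 CPM in the NC libraries and 26.0, 32.1 and 29.4 CPM in the knockdown libraries of the NONO experiment. It was lower in each knockdown library (log2 fold change -0.36 ± 0.08, adjusted P = 0.00428). EFNB1 was at 34.5, 34.3 and 33.4 CPM in the NC libraries and 23.7, 23.3 and 19.7 CPM in the knockdown libraries of the PKM2 experiment. This fall was somewhat larger on the log2 scale (log2 fold change -0.62 ± 0.08, adjusted P = 2.01e-05), and the difference between the experiments missed the threshold, at -0.27 ± 0.11 (adjusted P = 0.0579). EFNA5 and EFNB2, the ligand of EPHB4, rose after PKM2 knockdown by 0.46 ± 0.06 and 0.61 ± 0.07 (adjusted P = 4.56e-05 and 1.24e-05), and EFNA4 fell by 0.42 (SE 0.17, adjusted P = 0.0467), a call lost without any 1 of 4 libraries (adjusted P = 0.0897 to 0.156).

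Of the 14 Eph receptors, 5 were tested for NONO knockdown, of which 1 rose and 2 fell, and 6 for PKM2 knockdown, of which 2 rose and 2 fell. EPHA2, the best expressed member, was at 364, 363 and 364 CPM in the NC libraries and 507, 538 and 507 CPM in the knockdown libraries of the PKM2 experiment. All knockdown libraries were higher (log2 fold change 0.51 ± 0.04, adjusted P = 9.26e-07), and it was not called after NONO knockdown (log2 fold change -0.01 ± 0.04, adjusted P = 0.929). EPHA4 (chromosome 2, 221418027 to 221574202, minus strand), a receptor of both ephrin classes, was at 6.35, 6.20 and 5.61 CPM in the NC libraries and 13.9, 15.0 and 12.4 CPM in the knockdown libraries of the PKM2 experiment. It rose 2.27-fold (log2 fold change 1.19 ± 0.11, adjusted P = 1.69e-06). It was at 5.97, 6.20 and 6.31 CPM in the NC libraries and 4.59, 4.27 and 4.88 CPM in the knockdown libraries of the NONO experiment. The knockdown libraries were lower (log2 fold change -0.43 ± 0.13, adjusted P = 0.0302), and the call held without the first NC library and was lost without each of the other 5 (adjusted P = 0.0535 to 0.1076). EPHB2 was at 44.7, 40.9 and 45.6 CPM in the NC libraries and 26.2, 26.4 and 24.8 CPM in the knockdown libraries of the PKM2 experiment. It fell 1.70-fold (log2 fold change -0.76 ± 0.07, adjusted P = 8.08e-07). EPHB2 was at 40.5, 39.1 and 40.1 CPM in the NC libraries and 36.5, 34.8 and 34.1 CPM in the knockdown libraries of the NONO experiment. The groups were narrowly apart (log2 fold change -0.19 ± 0.06, adjusted P = 0.0298), and the call was lost without the second or the third library of either group (adjusted P = 0.0547 to 0.1148).

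EPHB4, the receptor of EFNB2, was at 46.9, 44.2 and 44.7 CPM in the NC libraries and 50.1, 51.9 and 50.3 CPM in the knockdown libraries of the NONO experiment. The rise was slight (log2 fold change 0.17 ± 0.05, adjusted P = 0.034) and was called without the first NC library and with no other library left out (adjusted P = 0.0733 to 0.1277). EPHB4 was at 42.2, 38.7 and 37.6 CPM in the NC libraries and 33.7, 35.5 and 31.7 CPM in the knockdown libraries of the PKM2 experiment. The small fall (log2 fold change -0.23 ± 0.07, adjusted P = 0.00986) was lost without the first NC library (-0.18, adjusted P = 0.0557), and the value was 0.04 (adjusted P = 0.64) with the trend on length and GC content taken out. EPHA5 and EPHA6 were tested in the PKM2 experiment on under 1 CPM per library and were not called.

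SLIT2 (chromosome 4, 20253260 to 20620561, plus strand), the 1 tested Slit ligand, rose in both experiments. It was at 75.4, 70.2 and 70.2 CPM in the NC libraries and 126, 119 and 119 CPM in the knockdown libraries of the NONO experiment. The knockdown libraries lay 1.68-fold higher with no overlap (log2 fold change 0.75 ± 0.05, adjusted P = 1.47e-06). SLIT2 was at 57.6, 56.2 and 54.7 CPM in the NC libraries and 80.4, 77.0 and 67.6 CPM in the knockdown libraries of the PKM2 experiment. The rise was smaller, and the third knockdown library was the lowest of its group (log2 fold change 0.42 ± 0.07, adjusted P = 0.000167). ROBO1 (chromosome 3, 78597240 to 79767815, minus strand), a receptor of SLIT2, went the other way. It was at 34.0, 34.9 and 36.8 CPM in the NC libraries and 18.5, 18.0 and 18.6 CPM in the knockdown libraries of the NONO experiment. All 3 knockdown libraries were nearly equal and 1.92-fold lower (log2 fold change -0.94 ± 0.07, adjusted P = 3e-06). ROBO1 was at 29.04, 29.3 and 28.2 CPM in the NC libraries and 18.0, 21.1 and 16.2 CPM in the knockdown libraries of the PKM2 experiment. The groups were again apart (log2 fold change -0.65 ± 0.09, adjusted P = 4.89e-05).

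ROBO4, the Robo of endothelial cells, was not called after NONO knockdown (log2 fold change 0.04 ± 0.05, adjusted P = 0.585) and fell after PKM2 knockdown (log2 fold change -0.88 ± 0.06, adjusted P = 8.08e-08). ROBO3 fell after PKM2 knockdown (log2 fold change -0.48 ± 0.09, adjusted P = 0.000503), a call lost with the trend on length and GC content taken out, at -0.18 (adjusted P = 0.1), and after NONO knockdown it was called only without the first NC library (log2 fold change -0.31, adjusted P = 0.00182). Since ROBO4 and PLXND1 are also genes of blood vessels, 6 endothelial markers were examined. Their summed level was 2.04 to 2.33 TPM in the NC and 1.89 to 2.17 TPM in the knockdown libraries of the NONO experiment, and 3.47 to 4.16 TPM and 1.36 to 1.91 TPM in those of the PKM2 experiment. In NC cells, 5 of the 6 markers in the first experiment and 4 in the second were below 0.5 TPM, among them TEK, listed at 0. Of the 2 that were tested, KDR fell after PKM2 knockdown while PECAM1 was not called, and PECAM1 rose after NONO knockdown. The part of these markers in the result was not tested.

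NTN4 (chromosome 12, 95657807 to 95791152, minus strand), a netrin of basement membranes whose promoter is printed above, had the largest rise of all members in both experiments. It was at 15.2, 22.3 and 18.6 CPM in the NC libraries and 34.7, 36.5 and 33.8 CPM in the knockdown libraries of the NONO experiment. The knockdown libraries were 1.87-fold higher, above an NC group with a low first library (log2 fold change 0.91 ± 0.11, adjusted P = 0.000134). NTN4 was at 13.9, 14.4 and 15.1 CPM in the NC libraries and 66.3, 65.4 and 68.6 CPM in the knockdown libraries of the PKM2 experiment. This was a 4.61-fold rise with tight groups (log2 fold change 2.21 ± 0.06, adjusted P = 1.82e-10). The other tested netrin, the membrane-anchored NTNG2, was at 1.77, 1.43 and 1.87 CPM in the NC libraries and 0.414, 0.860 and 0.872 CPM in the knockdown libraries of the PKM2 experiment. The groups were apart at this low level (log2 fold change -1.24 ± 0.32, adjusted P = 0.00492). NTNG2 was at 0.602, 1.95 and 1.17 CPM in the NC libraries and 0.947, 0.610 and 1.63 CPM in the knockdown libraries of the NONO experiment. The ranges overlapped (log2 fold change -0.23 ± 0.45, adjusted P = 0.741).

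NEO1 (chromosome 15, 73051710 to 73305206, plus strand) encodes neogenin, a receptor of netrins and of repulsive guidance molecules. It was at 50.4, 48.1 and 48.7 CPM in the NC libraries and 11.1, 10.5 and 10.9 CPM in the knockdown libraries of the PKM2 experiment. All 3 knockdown libraries were nearly equal and 4.52-fold lower (log2 fold change -2.17 ± 0.07, adjusted P = 2.69e-10). NEO1 was at 50.4, 51.0 and 56.6 CPM in the NC libraries and 50.4, 47.2 and 49.4 CPM in the knockdown libraries of the NONO experiment. The groups overlapped and the gene was not called (log2 fold change -0.10 ± 0.06, adjusted P = 0.224).

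Whether the knockdowns differed in their effect was tested as an interaction over the 12 libraries, each knockdown against its own NC group. Of the 47 members in that fit, 31 differed at an adjusted P below 0.05, against 53.1% of all genes tested. The effect of PKM2 knockdown was the higher in 11, against 25.7% of all genes, and the lower in 20, against 27.4%. The difference was at least 1 on the log2 scale in 12 members, or 25.5% against 16.9% of all genes. The largest were those of SEMA4G, at -2.20 ± 0.29 (adjusted P = 7.08e-06), NEO1, at -2.08 ± 0.09 (adjusted P = 6.65e-12), and SEMA4B, at -2.03 ± 0.12 (adjusted P = 6.55e-10). NTN4 and EPHA4 were the 2 of the 12 with the higher value after PKM2 knockdown, at 1.29 ± 0.13 (adjusted P = 3.34e-07) and 1.60 ± 0.17 (adjusted P = 3.6e-07). NRP1, SEMA3B and EFNA1 had similar values in both experiments, with differences of 0.06 ± 0.08 (adjusted P = 0.507), 0.02 ± 0.15 (adjusted P = 0.926) and -0.01 ± 0.61 (adjusted P = 0.997). SLIT2 rose less after PKM2 knockdown than after NONO knockdown, with a difference of -0.35 ± 0.09 (adjusted P = 0.00272), a difference that stayed below the threshold in 17 of the 20 other settings tried. That of ROBO1 was 0.28 ± 0.12 (adjusted P = 0.0496) and stayed below it in 4 of 20. Knockdown and experiment cannot be told apart in this contrast.

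Other genes of the pathway were counted in 2 lists. Of 51 further guidance cues, adhesion molecules and receptors, 24 were tested in the NONO experiment, where 3 rose and 10 fell (median -0.11), against 16.2% and 17.2% of all genes, and 25 in the PKM2 experiment, where 4 rose and 15 fell (median -0.55), against 33.6% and 34.7%. NRCAM and CNTN1, adhesion molecules of the immunoglobulin family, were DEGs in both. NRCAM was at 5.97, 5.77 and 5.09 CPM in the NC libraries and 3.59, 2.08 and 1.83 CPM in the knockdown libraries of the NONO experiment. All knockdown libraries were lower (log2 fold change -1.16 ± 0.23, adjusted P = 0.00262). NRCAM was at 6.42, 5.92 and 6.74 CPM in the NC libraries and 1.04, 1.46 and 1.03 CPM in the knockdown libraries of the PKM2 experiment. It fell further there (log2 fold change -2.44 ± 0.19, adjusted P = 3.35e-07). CNTN1 fell at low levels, from a mean of 2.01 to 0.908 CPM (log2 fold change -1.14 ± 0.33, adjusted P = 0.0206) and from 1.66 to 0.217 CPM (log2 fold change -2.90 ± 0.46, adjusted P = 0.000152). DSCAM, a netrin receptor, fell after PKM2 knockdown (log2 fold change -2.98 ± 0.38, adjusted P = 2.63e-05), and FLRT1, a ligand of UNC5 receptors, rose after NONO knockdown (log2 fold change 1.19 ± 0.23, adjusted P = 0.00212).

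Of 79 names listed for intracellular effectors of guidance receptors, 77 were found among the genes. Of these, 65 were tested in the NONO experiment, where 18 rose and 16 fell (median -0.0028), against 16.2% and 17.2% of all genes. In the PKM2 experiment 67 were tested, where 23 rose and 26 fell (median -0.04), against 33.6% and 34.7%. EVL, an actin regulator of the Ena/VASP family, was a DEG in both, with log2 fold changes of -1.04 ± 0.22 (adjusted P = 0.0035) and -2.45 ± 0.31 (adjusted P = 1.98e-05). DPYSL2, which relays semaphorin signals to microtubules, was at 70.0, 63.4 and 75.2 CPM in the NC libraries and 9.45, 10.1 and 8.92 CPM in the knockdown libraries of the PKM2 experiment. The knockdown libraries were 7.35-fold lower (log2 fold change -2.88 ± 0.08, adjusted P = 2.01e-10), and its relative DPYSL3 fell from a mean of 0.770 to 0.110 CPM (log2 fold change -2.76 ± 0.43, adjusted P = 0.00013). Of 7 neuronal markers, 4 were below 0.5 TPM in NC cells of either experiment, and their summed level, which TUBB3 dominated, was 48.4 to 51.5 TPM in the NC and 44.8 to 48.8 TPM in the knockdown libraries of the NONO experiment, and 52.7 to 61.8 TPM and 38.4 to 43.4 TPM in those of the PKM2 experiment. The summed level of 5 epithelial markers, of which CDH1 was at 0 in NC cells, was 435 to 476 TPM in the NC and 385 to 404 TPM in the knockdown libraries of the NONO experiment, and 465 to 476 TPM and 625 to 653 TPM in those of the PKM2 experiment. Of 6 fibroblast markers, 5 and 4 were below 0.5 TPM in the NC cells of the NONO and PKM2 experiments, where PDGFRA and DCN were listed at 0, with summed levels of 4.55 to 5.99 TPM against 2.40 to 2.93 TPM after NONO knockdown and 7.43 to 9.89 TPM against 7.76 to 10 TPM after PKM2 knockdown. The part of these markers in the results was not tested.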

How the data were processed

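The members, lists and tests were chosen with earlier results of these data known. Expression was measured by RNA-seq in 12 libraries of MDA-MB-231 cells. The authors deposited, for each experiment, estimated counts of each gene in each library, not always whole, and TPM values. The submitters' processing notes name fastp, HISAT2, StringTie, RSEM, DESeq2, edgeR, limma and the build hg19, without their roles. How the counting used strand, and how it treated reads that fit several genes, is not given in the sources used here. The authors' fold changes, p-values and group means were not used. Coordinates and exon overlaps come from GENCODE 29 (GRCh38) and serve for location only.

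Estimated counts were rounded and tested with edgeR 4.0.16 (R 4.3.3), using glmQLFit and glmQLFTest, TMM factors and filterByExpr, for each experiment separately and without a block. P values were adjusted over all genes tested, 14832 and 15524. The SE was the log2 fold change divided by the square root of F. The interaction was tested in a joint fit over 4 groups (15995 genes). On simulated data with 200 genes changed 4-fold, the test recovered 200 in the NONO and 200 in the PKM2 design, with 6 false calls among 14834 genes and 13 among 15543. The simulation gave every gene the same small spread, changed only well expressed genes and had no library that stood apart. It therefore checks the code and does not measure error rates for small changes or low counts in these data. Chi-square statistics per degree of freedom between replicate libraries were 2.38 to 13.4, so none was deposited again as another of its group. Libraries of different groups were not compared in this way.

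Values in every library are given for members that were DEGs in at least 1 experiment, were called in both, or differed between the knockdowns by at least 1 on the log2 scale, and for EPHA2, chosen for its level. Other tested members were named by level or, for those beyond 3 a family, after their values were seen. Other genes named were the targets, genes of the lists that were DEGs in both experiments, and genes among the 3 largest changes in a list, while MRPL43, AL691442.1 and SRPK3 were named for their exon overlap. Alternatives were DESeq2 1.42.0, relative log expression (RLE) factors, no filter on low counts, limma 3.58.1 on log2(TPM + 1) or log2(TPM + 0.1) for genes with a mean of at least 1 TPM, the former without that filter, a replicate block, an offset for the trend with transcript length and GC content in 20 bins, a fold change of at least 1.5, and each library left out. Trends on GC content used the 96.4% and 96.2% of genes with a value, including all 77 members.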

Additional observations from a re-analysis of the deposited data

Results flagged for a closer look

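The response of 12 members differed between the knockdowns by at least 1 on the log2 scale, by the interaction test in edgeR over 12 libraries (effect of PKM2 knockdown minus effect of NONO knockdown). The ligands with the lower value after PKM2 knockdown were SEMA4G, at -2.20, SEMA4B, at -2.03, EFNA3, at -1.62, SEMA3F, at -1.48, SEMA6C, at -1.42, and SEMA4F, at -1.12. The receptors with the lower value were NEO1, at -2.08, PLXND1, at -1.73, PLXNA3, at -1.24, and PLXNA2, at -1.06. NTN4, at 1.29, and EPHA4, at 1.60, had the higher value after PKM2 knockdown. The adjusted P of the difference stayed below 0.05 in all 20 other settings tried for 8 of the 12, in 19 for PLXNA2 and PLXNA3, and in 17 for SEMA4F and SEMA6C. EPHA4 was called in opposite directions, and every library of each knockdown lay beyond its NC group, as in 46.1% (NONO) and 71.9% (PKM2) of all genes. Its call after NONO knockdown was lost with DESeq2 (adjusted P = 0.126) and in all 3 limma fits. In edgeR it was lost without the filter on low counts (adjusted P = 0.0644) and with the replicate block (0.058). It was also lost with any library left out but the first NC library.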

How the results depend on the processing

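On TPM values, limma called fewer genes. The fit on log2(TPM + 1) called 2244 of 13786 genes after NONO knockdown and 8192 of 14026 after PKM2 knockdown. The fit on log2(TPM + 0.1) called 2102 and 8057 of the same genes. Without the filter on TPM, 1686 of 27378 and 8449 of 29763 genes were called. With log2(TPM + 1) and a mean of at least 1 TPM it gave 4 members raised, 5 lowered and 0 DEGs after NONO knockdown, 10 DEGs after PKM2 knockdown, and 8 called in the same and 0 in opposite directions in both. With log2(TPM + 0.1) it gave 4, 5 and 0 after NONO knockdown, and 7 in the same and 1 in opposite directions. Without the filter on TPM it gave 3, 6 and 0 after NONO knockdown, 10 DEGs after PKM2 knockdown, 6 in the same and 0 in opposite directions, and 17 whose response differed between the knockdowns, against 31. These limma fits also moved the share of all calls that were raised, from 48.4% to between 30.6% and 31.2% in the NONO experiment and from 49.2% to between 39.4% and 41.3% in the PKM2 experiment, and log2(TPM + 0.1) moved the median of all genes to -0.10 in the PKM2 experiment. DESeq2 called 3 members in opposite directions, and no filter on low counts gave 3 DEGs after NONO knockdown. A fold change of at least 1.5 left 2 raised and 5 lowered after NONO knockdown and 5 raised after PKM2 knockdown, with 6 in the same and 0 in opposite directions.

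Same-numbered libraries did not deviate together (r = -0.098, 0.041 and -0.055 in the NONO experiment and -0.063, 0.0043 and 0.031 in the PKM2 experiment), so the numbers were not taken as pairs. The fit with the replicate block gave 7 raised and 12 lowered after NONO knockdown, 10 and 27 after PKM2 knockdown, and 3 called in opposite directions in both. After NONO knockdown EPHA4, EPHB2 and EPHB4 lost their call, with adjusted P of 0.058, 0.0572 and 0.0719, as did EFNA4 (0.0674) and PLXNB2 (0.0606) after PKM2 knockdown.

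With the trend on length and GC content taken out, EPHB4, PLXNA1 and PLXNB2 turned to 0.0385, 0.0696 and 0.19 after PKM2 knockdown, the difference between knockdowns of SEMA6B turned to 0.0753, and 3 members were called in opposite directions. SEMA3C turned to -0.0897 after PKM2 knockdown in both limma fits on log2(TPM + 1) and to -0.0934 with log2(TPM + 0.1), and in that fit the difference between knockdowns of SEMA3A turned to -0.0036. The cause was not tested.

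Leaving out 1 library at a time gave 5 to 10 members raised, 10 to 17 lowered and 1 to 4 DEGs after NONO knockdown, 10 to 12 raised, 26 to 29 lowered and 17 to 19 DEGs after PKM2 knockdown, 13 to 18 called in the same and 1 to 5 in opposite directions, and 27 to 33 whose response differed. Without NC library 1 of the NONO experiment ROBO3, PLXNC1, SEMA6B and SEMA6C were also called, and EFNA1 was not, and without NC library 2 EPHA5, SEMA3A, SEMA4B and SEMA4C were also called and EFNA1, EPHA4, EPHB2 and EPHB4 were not. Without the third PKM2 knockdown library SEMA6D (0.66, adjusted P = 0.0237), PLXNA4 (1.31, adjusted P = 0.0432) and EPHA7 (-2.32, adjusted P = 0.0111) were also called, and PLXNB2 was not. SEMA6D was also called without the third NC library of that experiment. Depth limits the members with few counts per library, of which EFNA1, PLXNB1 and NTNG2 were called. SEMA4G and SEMA6C were similarly low in CPM in the PKM2 knockdown libraries, so the size of their fall rests on few counts there. Settings not listed here kept each count within 1.5 times.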

Other observations

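The ratio of counts to TPM, scaled to the median gene of each library, gives the transcript length that the authors' estimate implied in each library. After NONO knockdown the implied length of SEMA4F was 4268 ± 507 bases against 3321 ± 328 in NC libraries (SD, n = 3), and that of SEMA3E was 4516 ± 1147 against 5801 ± 135. After PKM2 knockdown it was 5984 ± 592 against 7099 ± 814 bases for NEO1 and 4219 ± 170 against 4958 ± 41.9 for EPHB2. These 4 were chosen after their values were seen, among the 19 of 73 gene and experiment pairs in which the groups did not overlap. Implied lengths were computed for members only. The share of such pairs over all genes is therefore not known, and the count cannot be read as particular to the members. Which transcripts lie behind these values was not tested.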
